A study of Mus musculus with 19 samples.

Results

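The regions described here carried 5-hydroxymethylcytosine (5hmC) on day 10 in both knockout lines (KO1 and KO2) and in no wild-type (WT) list of any day. All peaks of the 15 WT and KO lists on chromosomes 1 to 19 were merged wherever they shared at least 1 bp, which gave 342202 regions. A region was kept when it held a peak of KO1 at day 10 (D10), a peak of KO2 at D10 and no peak of the 9 WT lists. The rule kept 685 regions (337 kb), or 0.2% of all merged regions. Of these, 591 lay outside chromosome 5 and 94 on it. Chromosome 5 is treated apart because KO1 had an excess of peaks there on every day. The regions were chosen by peak presence in the KO D10 lists and absence from the WT lists, so neither is a result about them.

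TET enzymes make 5hmC by oxidising 5-methylcytosine, the methyl mark of repressed DNA, and 5hmC is an intermediate on the way to unmethylated cytosine. In stem cells and fibroblasts the base is found mainly in the bodies of active genes and at enhancers, so its map differs between cell types. Ascorbic acid is a cofactor that raises TET activity, and 2i is a pair of kinase inhibitors (CHIR-99021 against GSK3, PD-0325901 against MEK) that holds mouse stem cells in a naive state.

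The cells were pre-iPSCs, stalled intermediates of reprogramming derived from mouse embryonic fibroblasts. Knockout cells had 1 library of KO1 and 1 of KO2 at days 0, 2 and 10 (D0, D2 and D10). WT cells gave 3 libraries on each of these days, lettered A to C. A V6.5 embryonic stem cell line (mESC) was profiled once at each of 0, 12 and 72 hours. The labels give ascorbic acid (50 µg/mL) and 2i to all 18 libraries, D0 included, but do not say which gene was deleted, or whether it was the same one in KO1 and KO2. The run names in the lists carry CrisprKO for KO1 and CKO-H for KO2, and no label says how either line was made. Both lines are treated here as replicates of the KO arm. Nothing in the labels says that libraries came from separate cultures. Deletion could not be checked, because peak lists of DNA show no transcript.

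The KO D10 lists held 112303 (KO1) and 111281 (KO2) peaks, against 55134 to 86465 peaks in the WT D10 lists. WT lists of all days ran from 55134 to 161004 peaks and KO lists from 61125 to 138474. The lists give no read totals. The fold values step by what 1 read is worth, and a smaller step goes with more reads. The step was 0.140 and 0.189 in the KO D10 lists, and 0.134 to 0.228 in the WT D10 lists. Longer lists at D10 in KO cells thus stood beside the KO-specific regions. Coordinates are on mm9. Neither a genome nor gene models of mm9 were used here, and each region is therefore named by its position alone.

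Most 5hmC regions that the KO lines shared at D10 were also WT regions. Of 49899 regions with a peak in both KO D10 lists, 1.37% (95% Wilson interval 1.27 to 1.48%) were KO-specific. Another 26048 (52.2%) had a peak in at least 1 WT D10 list. A further 23166 (46.4%) had no WT D10 peak but had one at D0 or D2. A WT D2 peak was present in 96.5% of the 49899 regions and a WT D0 peak in 72.2%. Intervals here and below cover counting error only.

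The KO-specific regions sat at the low end of a continuum. Of the 49899 regions, 685 had a peak in 0 WT lists, 1175 in 1, 2477 in 2 and 5856 in 3, and the most common number was 6 (11700 regions). Among the 1175 regions just outside the rule, the single WT list was a D2 list in 851 cases, a D0 list in 223 and a D10 list in 101. WT D2 A alone accounted for 437 and WT D2 B for 287. WT D2 A was also the longest list. Without WT D2 A the rule would keep 974 regions outside chromosome 5, which is more than 1.5 times the 591 kept. For each of the other 8 WT lists left out, that number stayed between 606 and 848. With every list limited to its 55134 strongest peaks the rule kept 418 regions, and just 46 of them were among the 591.

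**Figure D1:**
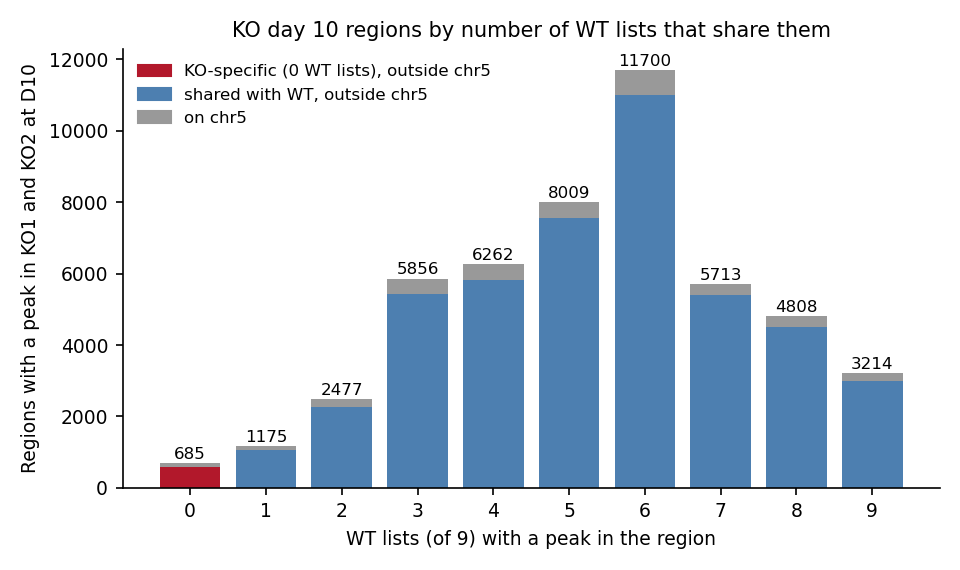
Number of regions with a peak in KO1 and KO2 at D10 (vertical axis) by the number of WT lists with a peak in the same region (horizontal axis, 0 to 9). The 685 KO-specific regions form the lowest column, next to 1175 regions found in 1 WT list, and grey marks the regions on chromosome 5.

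The lines shared few of the regions that each lacked a WT peak in. KO1 at D10 had 7741 regions with no WT peak (7.46% of its regions) and KO2 had 18148 (17.6%). The 685 regions common to both made up 8.85% of the KO1 number and 3.78% of the KO2 number. With or without a WT peak, KO1 had 103840 regions at D10 and KO2 had 103286, and 49899 were common to both. Why sharing was lower without a WT peak was not tested. In 668 of the 685 regions the KO1 and KO2 peaks overlapped directly, which the merging of overlapping peaks made likely in advance. Their summits lay a median of 59 bp apart, and within 100 bp in 450 regions. Neither value was computed for the other regions that both KO lines shared, so close agreement is not shown to be particular to these.

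Whether KO lines shared such regions more than WT libraries did was read in libraries that had no part in the choice. Outside chromosome 5, regions were chosen with a D10 peak in 1 KO line and no peak in the 6 lists of 2 WT letters, and then read in the other KO line and in the D10 list of the third letter. Of regions chosen in KO1, KO2 had a D10 peak in 13.4%, 12.1% and 11.3%, against 3.16%, 1.68% and 0.746% in WT A, B and C (8296, 9494 and 6702 regions). Of regions chosen in KO2, KO1 had a D10 peak in 4.84%, 5.40% and 3.95%, against 7.28%, 5.83% and 3.43% in WT A, B and C (22956, 21268 and 19147 regions). KO2 thus exceeded the held-out WT D10 list in 3 of 3 cases, whereas KO1 exceeded it in 1 of 3. Earlier WT lists of the held-out letter were often higher. Of regions chosen in KO1, WT D2 had 24.2%, 20.1% and 8.33% and WT D0 had 5.61%, 22.2% and 4.72% (A, B and C). Of regions chosen in KO2, WT D2 had 17.8%, 8.30% and 4.05% and WT D0 had 0.893%, 4.84% and 0.893%. The held-out WT D2 list therefore exceeded the KO D10 share in 5 of 6 cases. With 2 libraries against 3, an exact test cannot go below p = 0.1 and none was made. The D10 lists of both KO lines were longer than each WT D10 list in these comparisons.

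Outside chromosome 5 the KO-specific peaks were weak. Peak strength is the authors' -log10 p, fold and rank, used within a list only. In KO1 D10 the 591 regions had a median -log10 p of 9.46 (quartiles 7.50 and 11.3), against 13.8 (9.72 and 20.6) in the 46029 regions with a peak in both KO D10 lists and in at least 1 WT list, called WT-shared below. In KO2 D10 the medians were 8.85 (7.36 and 10.5) and 11.01 (8.09 and 14.4). Regions with a single WT list were close to the KO-specific ones, at 9.72 in KO1 and 8.41 in KO2. The median fold over background was 4.42 in KO1 and 4.39 in KO2, against 5.52 and 4.95 in WT-shared regions.

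The regions also ranked low in their lists. The median KO-specific peak stood 74.5% of the way down the KO1 list and 56.4% down the KO2 list, against 39.7% and 36.04% for WT-shared regions. In 48 of the 591 regions (8.12%) the peak ranked above the middle of both lists, against 41.7% of WT-shared regions. A -log10 q of at least 5 in both lines was reached by 395 (66.8%), and of at least 10 by 10 regions (1.69%), against 85.7% and 21.4% of WT-shared regions. The weakest KO-specific peaks had a -log10 p of 4.61 in KO1 and 4.16 in KO2, against a lowest value of 4.03 for WT-shared regions in each line. Peak width had a median of 302 bp in KO1 and 288 bp in KO2, against 439 and 377 bp in WT-shared regions. These values describe peaks that the rule itself chose and were not tested.

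**Figure D2:**
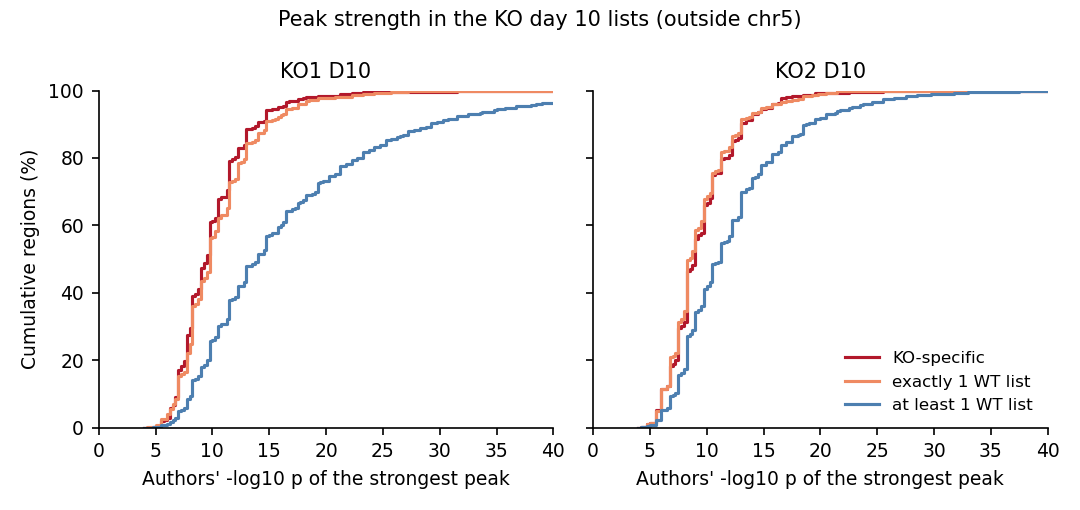
Cumulative share of regions (vertical axis, %) by the authors' -log10 p of the strongest peak in the KO1 D10 list (left) and the KO2 D10 list (right), outside chromosome 5, with the horizontal axis ending at 40. KO-specific regions and regions with exactly 1 WT list follow nearly the same line, and regions with at least 1 WT list lie to the right, with medians of 13.8 (KO1) and 11.01 (KO2).

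The rule neither required nor excluded a peak in the KO D0 and D2 lists, which are used here to date the regions. Their peaks were merged with the others, however, and so helped to set the bounds of the regions. At D0, 42 of the 591 regions had a peak in KO1 (7.11%, 95% Wilson interval 5.30 to 9.47%) and 94 in KO2 (15.9%, 13.2 to 19.1%). Over all merged regions outside chromosome 5 these shares were 16.2% and 23.9%. At D2, 252 regions had a peak in KO1 (42.6%, 38.7 to 46.7%) and 346 in KO2 (58.5%, 54.5 to 62.5%), where all merged regions gave 36.1% and 31%. The regions were thus below the background at D0 and above it at D2 in each line. They had to hold a D10 peak in both KO lines and no WT peak, and the other merged regions did not. The choice itself therefore enters this order, here and in later comparisons with all merged regions. The KO D0 lists were shorter (61125 and 86943 peaks) than the D2 lists (138474 and 114143). With every list limited to 55134 peaks, the 418 regions kept, which are mostly other regions, had a peak in 34.2% (KO1) and 52.2% (KO2) at D2 and in 16.7% and 17.9% at D0. The share over all merged regions was not computed for that setting, so the order against the background is shown for all deposited peaks only.

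Taken over both lines together, most of the regions had their first KO peak at D2. Within a single line this did not hold. A D2 peak without a D0 peak was found in 39.4% of the regions in KO1 and 44.8% in KO2. No peak on either day was found in 53.5% (KO1) and 39.3% (KO2). A D2 peak in at least 1 line with no D0 peak in either was found in 354 regions (59.9%, against 29.2% of all merged regions): in KO1 alone in 103, in KO2 alone in 143 and in both lines in 108. A D0 peak was found in 117 regions (19.8%, against 29.4% of all merged regions), in 1 line in 98 of them and in both in 19. No earlier KO peak was found in 120 regions (20.3%, 17.3 to 23.7%), which were peaks at D10 alone; 41.4% of all merged regions had no KO D0 or D2 peak. A peak in all 6 KO lists was found in 10 regions (1.69%, against 4.48% of all merged regions). A D0 peak was not always followed by one at D2 in the same line: 23 of the 42 regions with a KO1 D0 peak had no KO1 D2 peak, and 13 of the 94 with a KO2 D0 peak had no KO2 D2 peak. In WT-shared regions these counts were 943 of 20474 (KO1) and 1485 of 23243 (KO2). In regions with exactly 1 WT list they were 24 of 83 and 23 of 205.

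**Figure D3:**
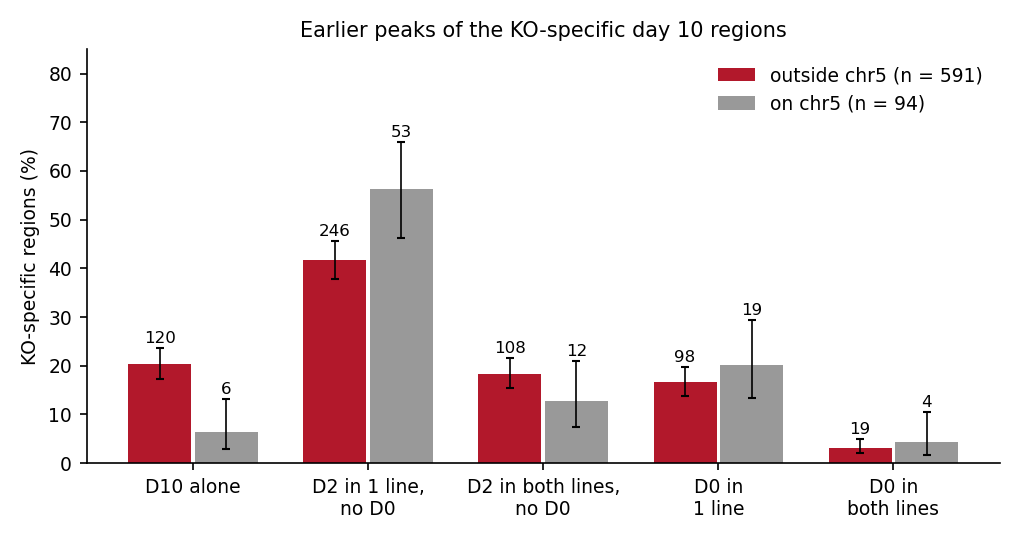
Share of the KO-specific regions (vertical axis, %) by the KO lists of D0 and D2 that already had a peak (horizontal axis), for 591 regions outside chromosome 5 (red) and 94 on it (grey). Numbers are regions, whiskers are 95% Wilson limits, and the largest class in both is a D2 peak in 1 line without a D0 peak (246 and 53 regions).

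Earlier peaks were rarer in KO-specific than in WT-shared regions in each of the 4 lists. The WT-shared regions had a peak in 44.5% (KO1 D0), 50.5% (KO2 D0), 91.9% (KO1 D2) and 83.7% (KO2 D2). The mean share over the 4 lists was 31.1% in KO-specific regions and 67.6% in WT-shared regions, a difference of -36.6 points (lower in 4 of 4 lists). A two-sided exact sign-flip test over the lists gave p = 0.13, the smallest that 4 lists allow (0.281 after Benjamini-Hochberg adjustment over 9 such comparisons). These lists are 2 lines on 2 days, not 4 independent replicates, here and in later tests over them. The rule kept out regions with a WT D0 or D2 peak, whereas WT-shared regions could have one, so the choice itself enters the difference. With only the WT D10 lists excluding, it was -5.34 points. WT-shared regions were also longer (median 796 bp, against 431 bp). Against regions with exactly 1 WT list the difference was -6.52 points, again lower in 4 of 4 lists (exact p = 0.13, adjusted 0.281), and most of it came from KO1 D2, with 42.6% against 62.3%. In the other 3 lists the shares were 7.11% against 7.90%, 15.9% against 19.5% and 58.5% against 60.6%.

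Regions that a single line held without a WT peak gave lower shares at D2. Of 5243 regions with a D10 peak in KO1 and not KO2, 23.5% had a KO1 D2 peak and 14.3% a KO2 D2 peak. Of 17026 regions with a D10 peak in KO2 and not KO1, 29.3% had a KO2 D2 peak and 10.4% a KO1 D2 peak. At D0 the same line had a peak in 10.6% of the KO1 set and 7.89% of the KO2 set, so the KO1 value lay above the 7.11% of KO-specific regions and the KO2 value below their 15.9%. In those sets 55.9% and 61.6% were peaks at D10 alone. Within the KO2 D10 list, KO-specific regions that already had a KO2 D2 peak had a median -log10 p of 9.34, against 8.09 for those without. In KO1 the medians were 9.28 and 9.46, so no such order was seen there.

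KO D2 was tested against KO D0, a contrast between libraries in which the rule neither required nor excluded a peak. Their peaks did help to set the bounds of the regions. The spread, however, was estimated over all 15 libraries, those of the rule included. It was made on 10 kb windows, by the bp under the 55134 strongest peaks of each list, with limma over 15729 windows. Of these, 234 rose (1.49%) and 47 fell (0.299%) at a Benjamini-Hochberg adjusted p of 0.05. These counts rest on the setting: the 4 KO libraries of D0 and D2 alone, or all libraries without KO1 D2, gave 0 up and 0 down. Without KO2 D0 there were 8 up and 0 down, without KO2 D2 45 and 20, and without KO1 D0 338 and 18. All deposited peaks gave 1779 up and 19 down, and all windows with a covered bp gave 185 up and 327 down. Of the 676 windows that held the middle of a KO-specific region, 134 had enough covered bp to be tested. Of those 134, 2 rose and 0 fell at the adjusted threshold, which is near the background shares of 1.49% and 0.299%. At an unadjusted limma p of 0.05, 15 of them rose and 2 fell. At that threshold 2626 of all 15729 windows changed in either direction, a larger share than among the 134. Rises alone were not counted over all windows at that threshold. The median log2 change was 0.32 in the 134 windows, against 0.16 in all windows tested. These windows also hold other peaks, so the change is that of the neighbourhood.

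The 2 windows that rose, named after their values were seen, were chr16:55810001-55820000 and chr15:85530001-85540000. The first held 1062 bp (KO1) and 2537 bp (KO2) of strong peaks at D2, and 0 bp in both lines at D0, a log2 change of 3.22 (SE 0.53) with an adjusted p of 0.0118 by limma. The second held 1951 and 2392 bp at D2, and 0 bp in both lines at D0, a log2 change of 3.56 (SE 0.63) with an adjusted p of 0.0167 by limma. The KO libraries of the 2 days do not overlap in either window. These log2 changes depend on the 200 bp added to each value. Neither window was called when KO1 D2, KO2 D2 or KO2 D0 was left out, nor with the 4 KO libraries of D0 and D2 fitted alone.

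The 5 strongest KO-specific regions outside chromosome 5, by the smaller of the -log10 p values of the D10 lists, show several histories. The region chr3:126749092-126749420 (329 bp) had a -log10 p of 17.3 in KO1 and 16.5 in KO2 at D10, against 9.11 in KO2 at D2 and no peak in the other 3 earlier KO lists. The region chr18:67747232-67747550 (319 bp) had 16.0 and 15.2 at D10, and 15.6 in KO2 at D2. At chr9:112125002-112125301 (300 bp) the values were 14.6 and 15.6 at D10, and 16.0 in KO2 at D2. These 3 short regions were therefore present in KO2, and not in KO1, by D2.

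The other pair was older. At chr18:78545611-78546014 (404 bp) the -log10 p was 14.7 (KO1) and 19.3 (KO2) at D10, and it was 15.9 and 18.8 at D0 and 17.9 in KO2 at D2, with no KO1 peak at D2. At chr9:69138457-69139618 (1162 bp) every KO list had a peak. KO1 had 13.6, 18.7 and 14.6 there at D0, D2 and D10, and KO2 had 7.99, 13.55 and 15.6. None of these 5 regions had an mESC peak. Their nearest WT peak lay 0.42 to 1.52 kb away, except at chr18:78545611-78546014, where it lay 28.8 kb away.

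Of the 120 regions seen at D10 alone, the strongest was chr11:40381045-40381354 (310 bp), with a -log10 p of 14.6 in KO1 and 12.9 in KO2 and a fold of 5.80 and 5.52. Next came chr7:69258568-69258901 (12.9 and 12.1), chr11:68833296-68833557 (11.6 and 12.0), chr8:36364340-36364656 (11.3 and 16.5) and chr9:36888671-36888976 (11.3 and 12.9). All 5 were 262 to 334 bp long and had no mESC peak. The one on chromosome 7 lay 18.3 kb from the nearest WT peak, and the other 4 lay 0.36 to 6.23 kb away.

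Of the 10 regions with a peak in all 6 KO lists, the 5 strongest were 837 to 1670 bp long, against a median of 431 bp over all 591 regions. A merged region spans every peak in it, and the part of this in the length was not tested. After the chromosome 9 region above came chr1:158134831-158135777 (947 bp), where KO1 had a -log10 p of 12.0, 7.29 and 11.01 and KO2 18.1, 11.5 and 12.1 at D0, D2 and D10. At chr13:69879005-69879853 KO1 had 7.74, 7.99 and 10.2 and KO2 12.7, 11.5 and 10.4. At chr9:54508929-54509765 KO1 had 7.74, 11.7 and 10.5 and KO2 13.6, 9.46 and 9.62. None of these regions had a mESC peak, nor did chr14:29319379-29321048.

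The region on chromosome 14, 1670 bp long, was also the longest KO-specific region outside chromosome 5. Its -log10 p was 20.7, 7.61 and 31.3 in KO1 and 21.2, 19.3 and 8.23 in KO2 at D0, D2 and D10. The nearest WT peak was 488 bp away. The next in length were chr3:45183292-45184749 (1458 bp), chr13:46008157-46009567 (1411 bp), chr13:71207445-71208718 (1274 bp) and the chromosome 9 region above. Those on chromosome 13 had strong KO2 D0 peaks (27.1 and 24.5) and no KO1 peak at D0 or D2. The one on chromosome 3 had no D0 peak in either line. Over all 591 regions the median length was 431 bp, against 796 bp in WT-shared regions.

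Few of the regions had a peak in mESC: 33 of the 591 (5.58%) had one in at least 1 mESC list, against 15.9% of all merged regions. Regions with no WT peak and a D10 peak in 1 KO line alone gave 3.62% (KO1) and 5.30% (KO2). The low share was thus not particular to the KO-specific regions. The mESC lists held 24130 to 33576 peaks, fewer than any WT or KO list, so a missing peak does not show that 5hmC was absent. A peak was found in 17 of the 591 regions at 0 hours (2.88%, 95% Wilson interval 1.80 to 4.56%), in 11 at 12 hours (1.86%, 1.04 to 3.30%) and in 10 at 72 hours (1.69%, 0.922 to 3.09%). All merged regions outside chromosome 5 gave 6.95%, 7.71% and 5.04%. The 418 regions kept with every list limited to 55134 peaks gave 4.78%, 5.98% and 2.87%, and 11.5% of them had a peak in at least 1 mESC list. WT-shared regions gave 18.3%, 16.5% and 5.77%, and regions with exactly 1 WT list gave 3.81%, 4.29% and 1.81%. The mean share over the 3 mESC lists was 2.14% in KO-specific and 13.5% in WT-shared regions (lower in 3 of 3 lists, two-sided exact sign-flip p = 0.25, the smallest that 3 lists allow, adjusted 0.281). These lists are single libraries of 1 cell line at different hours, not replicates, here and in later tests over them. WT-shared regions were also longer (median 796 bp, against 431 bp), and the part of length in this difference was not tested.

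The opposite choice gave regions with other mESC shares. Regions outside chromosome 5 with a peak in at least 2 of the 3 WT D10 lists and in no KO list of any day numbered 22450. They had a peak in 5.63%, 17.3% and 24.2% of cases at 0, 12 and 72 hours of mESC. The mean difference of KO-specific from these WT-specific regions was -13.6 points (lower in 3 of 3 lists, exact sign-flip p = 0.25, adjusted 0.281). The mirror rule excluded on 6 KO lists and asked for 2 of 3 libraries, so it is not of equal strictness.

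**Figure D4:**
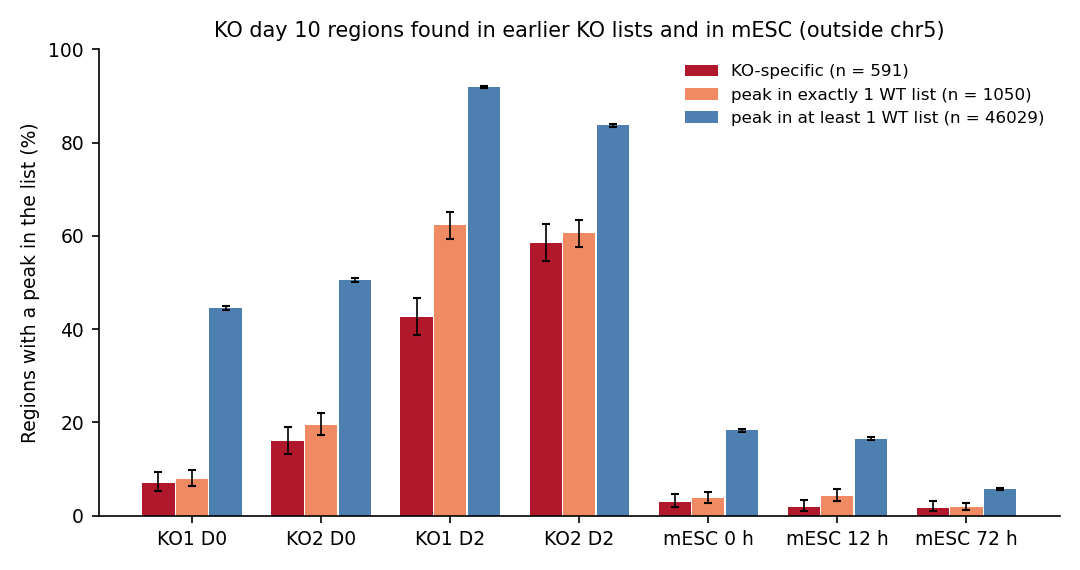
Share of regions with a peak (vertical axis, %, with 95% Wilson limits) in each KO list of D0 and D2 and in each mESC list (horizontal axis), outside chromosome 5, for KO-specific regions, regions with exactly 1 WT list and regions with at least 1 WT list. KO-specific regions reach 58.5% in KO2 D2 and stay under 3% in each mESC list.

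Just 4 of the 591 regions had a peak in at least 2 mESC lists (0.677%, against 3.51% of all merged regions). At chr8:126047963-126048286 the -log10 p was 9.09 in both KO lines at D10 and 7.09 in KO2 at D2. At chr12:107617785-107618412 it was 9.72 (KO1) and 9.09 (KO2) at D10, with stronger KO2 peaks at D0 (26.5) and D2 (11.5). At chr12:119044410-119044781 it was 7.99 and 5.95 at D10, and 6.37 (KO1) and 7.59 (KO2) at D2. These 3 regions had a peak in the 0 and 12 hour lists. The fourth, chr18:31606356-31606909, had a peak in all 3 mESC lists, with 7.50 (KO1) and 6.65 (KO2) at D10 and 4.75 in KO1 at D0. A peak in some mESC list was found in 13 of 98 regions with a D0 peak in exactly 1 line (13.3%), 0 of 19 with one in both lines, 6 of 246 with a first peak at D2 in 1 line (2.44%), 6 of 108 with one at D2 in both (5.56%) and 8 of 120 seen at D10 alone (6.67%).

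Most of the regions lay within 10 kb of a WT peak, and the rule let none overlap one. Gaps from random positions were not computed, so closeness is not shown to be particular to these regions. Their median gap to the nearest peak of any WT list was 1227 bp (quartiles 474 and 3718 bp). It was within 1 kb for 258 regions (43.7%) and within 10 kb for 88.7%, and 13 regions lay more than 50 kb from any WT peak. By day, the median gap was 2.39 kb to a WT D0 peak, 2.45 kb to a WT D2 peak and 6.71 kb to a WT D10 peak; the D10 lists were the shortest on average. Regions held by a single line gave similar values, with medians of 1131 bp (KO1) and 1300 bp (KO2).

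Of the 591 KO-specific regions, 38 (6.43%) lay within 20 kb of another one, in 19 pairs, and the median distance to the next was 941 kb. This share was not computed for other regions or for random positions, so neither scatter nor grouping is shown. The closest pairs were at chr6:103284326-103285750, chr14:119476050-119477676 and chr8:106338900-106340540, each within 2 kb. The chromosome 8 pair stood alone in the WT map, with the nearest WT peak 56.2 kb away. In its 2 regions KO2 had a -log10 p of 5.30 and 22.3 at D10 and 15.0 and 13.5 at D2, with 14.3 in the second region at D0. KO1 had 10.5 and 6.41 at D10 and no D0 or D2 peak. On the other 18 chromosomes the rule kept 17 to 59 regions each, or 0.718% (chromosome 17) to 1.95% (chromosome 14) of the regions shared by both KO lines.

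Chromosome 5 stood apart. It held 94 KO-specific regions, 2.87% (95% Wilson interval 2.35 to 3.50%) of the 3279 regions that both KO lines shared there, against 1.27% (1.17 to 1.37%) elsewhere. Chromosome 5 held 10.3 to 10.5% of the KO1 peaks on the 3 days, 4.29 to 5.56% of the KO2 peaks and 5.41 to 6.81% of the WT peaks. The excess in KO1 was already present at D0, at 10.35%, and the share was 10.32% at D2 and 10.49% at D10. The part of this excess in the number of regions was not tested.

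**Figure D5:**
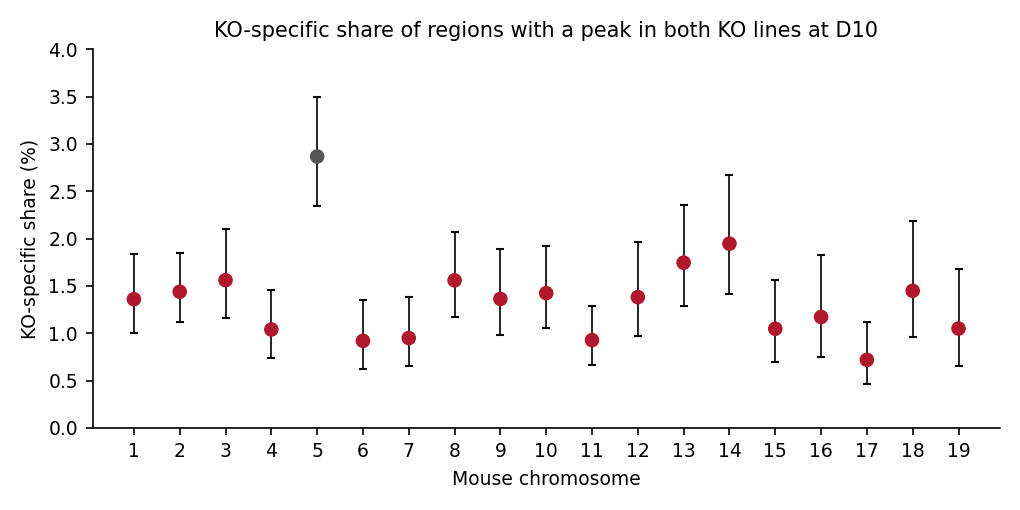
KO-specific share (vertical axis, %, with 95% Wilson limits) of the regions with a peak in both KO lines at D10, by chromosome (horizontal axis). Chromosome 5 (grey) is at 2.87%, and the other 18 chromosomes lie between 0.718% and 1.95%.

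On chromosome 5 the regions were found at D2 mostly in KO1. At D2, 70 of the 94 had a peak in KO1 (74.5%) and 37 in KO2 (39.4%), where all merged regions on chromosome 5 gave 61.1% and 22%. At D0 the numbers were 9 (9.57%) and 18 (19.1%), against 26.9% and 20.2% of all merged regions there. Just 6 regions (6.38%) were seen at D10 alone, against 20.3% outside chromosome 5 and 25.2% of all merged regions on it. A D2 peak in KO1 alone, with no D0 peak, was the most common history (44 of 94), while outside chromosome 5 it was a D2 peak in KO2 alone (143 of 591). Over the 4 earlier KO lists the share differed from that outside chromosome 5 by 4.59 points (higher in 3 of 4 lists, exact sign-flip p = 0.625). In mESC it was 5.32%, 8.51% and 4.26% at 0, 12 and 72 hours, where all merged regions there gave 7.69%, 7.73% and 5.13%. These shares were higher than outside chromosome 5 in 3 of 3 lists (exact sign-flip p = 0.25, adjusted 0.281).

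The strongest on chromosome 5 were chr5:19597790-19598278, chr5:112108546-112108957 and chr5:20495778-20496130. The first had a -log10 p of 20.6 (KO1) and 17.0 (KO2) at D10 and 15.0 in KO2 at D2, and its nearest WT peak lay 20.1 kb away. The second had 16.4 and 18.4 at D10 and 12.5 in KO1 at D2. The third had 15.2 and 19.4 at D10, 17.7 in KO1 at D2 and 11.3 in KO2 at D0. None of these 3 regions had an mESC peak.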

How the data were processed

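Sheared DNA (200 to 500 bp) was enriched for 5hmC by azide-glucose transfer, biotin coupling and streptavidin pull-down, with 14 PCR cycles, per the labels. Per the submitters' processing notes, Bowtie, SAMtools and MACS2 were used with mm9; no version is stated in the sources used. Each library has its own deposited list, whose columns hold the authors' score, the fold enrichment (a linear ratio), and -log10 of p and of q. The mESC lists were used as deposited, although a label states that no peaks were called there. The input library had no list.

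Regions were merged and counted with Python 3.11.15 and pandas 2.3.3. Windows of 10 kb in which peaks covered 500 bp or more on average were fitted by limma 3.58.1 (R 4.3.3) on log2(covered bp + 200), each list cut to its 55134 strongest peaks and scaled to the mean total, with all 15 libraries in 6 groups. The fit was tested on simulated data, and a window not called is not shown to be unchanged. KO1 and KO2 were taken as the same lines on each day; their deviations correlated between days by 0.17 to 0.29 without chromosome 5. The regions, lists and tests were chosen with earlier results of these data known. Named regions are the 5 strongest, the 5 strongest seen at D10 alone and in all 6 KO lists, those in at least 2 mESC lists, the 5 longest, the 3 closest pairs and the 3 strongest on chromosome 5. Gene names, gene lists and sequences were not used, as they need an mm9 genome. The same rule kept 2 regions on chromosome X, counted apart after the data were seen.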

Additional observations from a re-analysis of the deposited data

How the results depend on the processing

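The number of KO-specific regions outside chromosome 5 (591) was 418 with each list cut to its 55134 strongest peaks, 396 with KO D10 peaks of a -log10 q of at least 5, 521 with that threshold on all lists, 561 with 50% overlap of the shorter peak and 460 with peaks up to 500 bp apart merged. These numbers do not hold the same regions: only 46 of the 591 (7.78%) were kept with the strongest peaks, against 395 (66.8%) under either -log10 q threshold. With the strongest peaks, the mean share with a KO D0 peak over both lines was 17.3% and with a KO D2 peak 43.2% (11.5% and 50.6% as reported), 27.0% had no earlier KO peak, 11.5% had some mESC peak (5.58% as reported) and the median gap to a WT peak was 1660 bp. The gap was 2120 bp with peaks up to 500 bp apart merged. With only the WT D10 lists excluding, 22401 regions outside chromosome 5 and 1450 on it were kept, with means of 45.3% at D0 and 83.4% at D2, 2.81% with no earlier peak, 18.1% with some mESC peak and a gap of 3290 bp. The difference from WT-shared regions over the 4 KO lists was -5.34 points there and stayed negative under each alternative run; with 50% overlap it was not run.

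Leaving out 1 library at a time (a KO D10 list left out asks the peak of the other line alone) gave 606 to 17617 regions outside chromosome 5 and 96 to 1907 on it. Mean shares were 4.34 to 15.8% at D0 and 20.9 to 56.4% at D2; 16.1 to 60.2% had no earlier peak, 3.82 to 6.94% had some mESC peak, the gap was 1140 to 1380 bp and the difference from WT-shared regions -41.3 to -33.7 points.

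For KO D2 against KO D0 (234 windows up, 47 down; 2 up and 0 down with a KO-specific region), the fit with the line as replicate block gave 212 up and 43 down, and 2 and 0. All deposited peaks gave 1779 up and 19 down (19 up with a region), all windows with a covered bp 185 up and 327 down (5 up and 1 down), a mean of at least 2000 covered bp 23 up and 0 down (no window with a region was left), a pseudocount of 1000 bp 76 down (1 with a region), and the 4 KO libraries alone 0 up and 0 down (0 up with a region; 1667 windows at an unadjusted p of 0.05). Without 1 of the 4 KO libraries, 0 to 338 windows rose, 0 to 20 fell, and 0 to 5 with a region rose and 0 fell. The causes were not tested.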
